A study of Mus musculus with 32 samples.

Results

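The 10 genes described here build or regulate the cornified surface of stratified epithelium: Flg, Flg2, Hrnr, Ivl, Tgm1, Tgm3, Cdsn, Zfp750, Grhl3 and Lypd2. They were taken as a list of symbols and looked up in the gingiva count table. All 10 were found among its 55359 gene identifiers, and all 10 were among the 20143 genes that passed the filter on low counts. The study sequenced poly(A)-enriched RNA from gingiva and bone of wild-type C57BL/6J males, an inbred strain of laboratory mouse, treated at 9 weeks of age. Control mice (Co) had no treatment. Ligature mice (Li) had a silk thread placed at the left second upper molar, which gathers plaque and brings on periodontitis. Trauma mice (Tra) had composite resin built on the biting surface of the same molar, which overloads it, and combined mice (LiTra) had both. Each group had 4 gingiva libraries, 16 in all, and the time from treatment to sampling is not given in the sources used here. Per the series title, the study asked whether occlusal trauma worsens the bone loss of ligature periodontitis; the gingiva libraries allow the same groups to be compared in the soft tissue.

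Gingiva is covered by a stratified squamous epithelium whose outer face, like the skin, ends in layers of dead, cross-linked cells. As keratinocytes move outward they load keratin filaments with filaggrin-family proteins, lay precursor proteins under the membrane, and have transglutaminases cross-link these into a cornified envelope. Corneodesmosomes hold the finished cells together, lipids seal the gaps, and a small set of transcription factors switches the programme on.

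Filaggrin (Flg), filaggrin 2 (Flg2), hornerin (Hrnr) and involucrin (Ivl) lie together in the epidermal differentiation complex of chromosome 3. Their promoters are shown because these neighbours, 3 of them of the same protein family, differed in how far their counts moved. RefSeq's table of the GRCm38.p6 build had a promoter for 8 of the 10 genes, all except Zfp750 and Lypd2. The 130 bases before each start site are given 5′ to 3′ on the gene's strand, with capitals for matches to TGANTCA, the letters of an AP-1 site, and to TATAAA, the letters of a TATA box. The windows are chr3:93197143-93197272 (plus strand) for Flg2, chr3:93273416-93273545 (plus) for Flg, chr3:93319619-93319748 (plus) for Hrnr and chr3:92573736-92573865 (minus) for Ivl.
Flg2: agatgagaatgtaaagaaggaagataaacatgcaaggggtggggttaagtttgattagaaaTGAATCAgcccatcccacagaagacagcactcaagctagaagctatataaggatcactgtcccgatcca
Flg: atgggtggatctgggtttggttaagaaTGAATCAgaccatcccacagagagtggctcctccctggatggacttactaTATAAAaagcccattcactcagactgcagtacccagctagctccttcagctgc
Hrnr: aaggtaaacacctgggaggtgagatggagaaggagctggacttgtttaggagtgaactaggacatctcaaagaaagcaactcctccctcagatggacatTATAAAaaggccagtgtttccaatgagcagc
Ivl: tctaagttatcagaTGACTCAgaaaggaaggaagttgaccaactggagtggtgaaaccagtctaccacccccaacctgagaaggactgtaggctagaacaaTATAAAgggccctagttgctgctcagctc

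The Flg and Flg2 promoters share their best 40-base stretch at 31 identical bases, and the AP-1 letters lie inside it in both. The best stretch had 28 identical bases for Flg and Hrnr, 27 for Flg2 and Hrnr, and 22 to 24 for Ivl with each of the others. Over 250 bases before the start and on both strands, TGANTCA was found in Flg, Flg2 and Ivl and in 6.75% of 32851 promoters of that length. TATAAA was found in Flg, Hrnr, Ivl and Tgm3, against 12.4% of all promoters. The letters of a Grainyhead site, AACNGGTT, were in 0 of the 8 promoters and in 1.79% of all, and GGGTGTG, which KLF factors can bind, was in Ivl and Tgm3 and in 6.93% of all. The matches do not overlap one another, and a match is a string of letters, not a bound site.

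Gingiva libraries held 36913075 to 50740393 counts and 22974 to 24358 genes above 0. Levels are given as CPM, the usual depth-normalised count, with library sizes scaled by the trimmed mean of M-values (TMM). Markers of oral epithelium were high in every library. Krt4 and Krt13, keratins of the non-cornified oral lining, summed to 12072 to 71397 CPM. The 8 keratins of cornified epithelium summed to 4059.5 to 29356 CPM. How much lining mucosa the samples held was not tested. The 4 Li libraries did not behave as 1 group. Li 1 and Li 2 had 2861 and 2268 CPM of S100a8, a neutrophil gene, against 424 and 357 in Li 3 and Li 4 and 46.5 to 314 in Co, and the same libraries stood apart for several of the 10 genes. All 4 were kept in every comparison, as the labels have them. Nothing in the labels says that the 4 libraries of a group came from separate animals, and p-values then measure only how much these libraries varied.

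In untreated gingiva the genes covered a wide range of levels. Per kilobase of exon, Tgm3 (334 ± 47.5 CPM per kb, mean ± SD, n = 4), Hrnr (261 ± 71.6) and Cdsn (171 ± 43.1) were the highest. Tgm1 followed at 87.1 ± 18.2 CPM per kb, then Grhl3 (28.1 ± 4.12), Zfp750 (23.4 ± 2.21) and Flg (17.7 ± 3.94). Lypd2 (5.38 ± 1.94), Ivl (0.879 ± 0.460) and Flg2 (0.357 ± 0.0711) closed the order. The ranges of mean ± SD overlapped for the neighbours Tgm3 and Hrnr, Hrnr and Cdsn, Grhl3 and Zfp750, Zfp750 and Flg, and Ivl and Flg2. In LiTra the upper levels were 100.4 ± 16 CPM per kb for Tgm3, 66.0 ± 14.4 for Tgm1, 65.3 ± 30.1 for Hrnr and 47.4 ± 9.49 for Cdsn. There the range of Hrnr overlapped those of Tgm3, Tgm1 and Cdsn, and the ranges of Tgm1 and Cdsn overlapped. The place of Hrnr and the order of Tgm1 and Cdsn are thus not resolved. Exon lengths come from the GENCODE M21 annotation, which belongs to another build than the counts, so the values per kb are approximate.

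**Figure D1:**
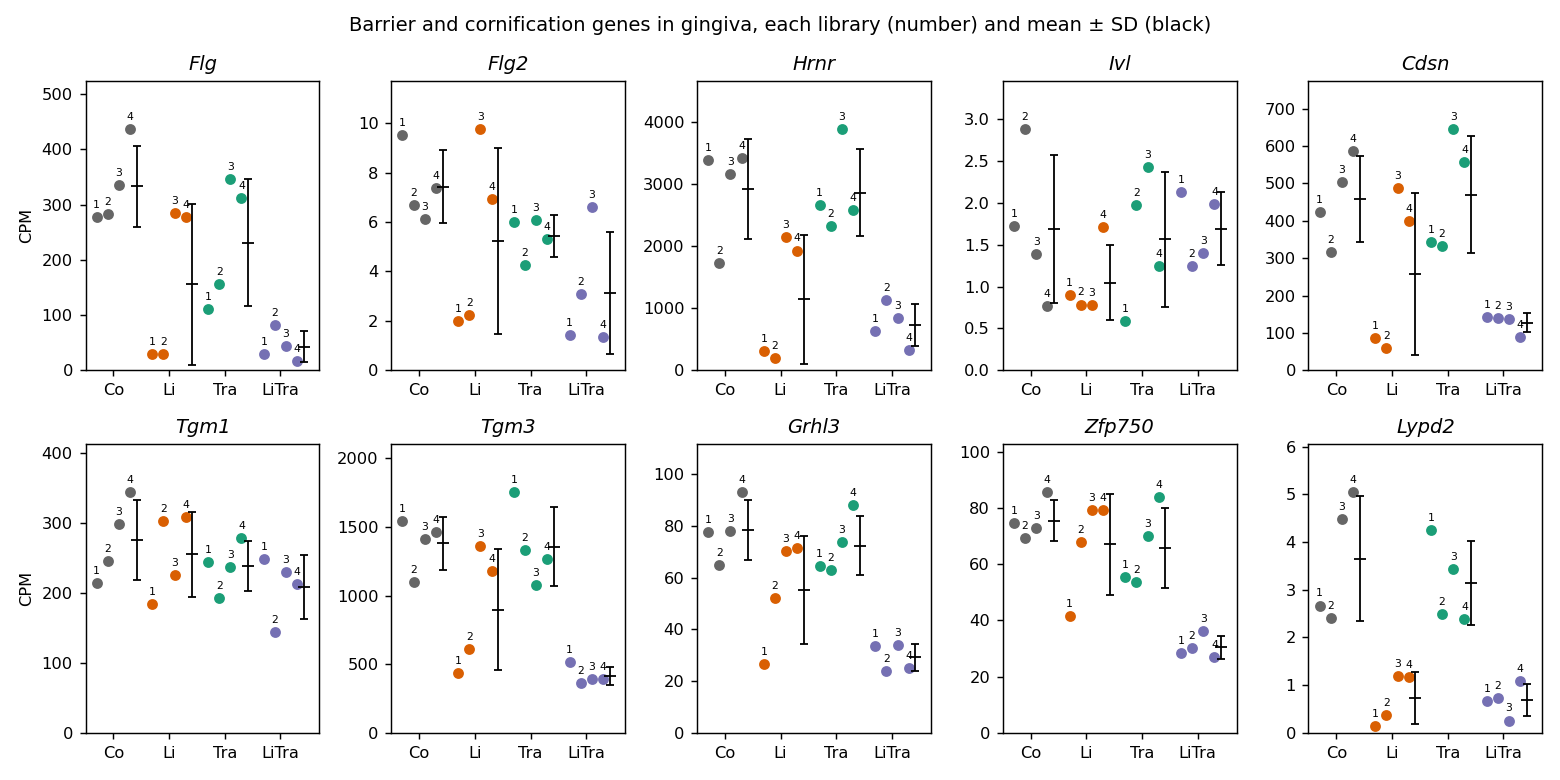
Level of each of the 10 genes in the 16 gingiva libraries (CPM on a linear axis from 0, 1 panel per gene), with numbered points for single libraries and black marks for the mean ± SD of each group (n = 4). For Flg, Hrnr, Tgm3, Cdsn, Zfp750, Grhl3 and Lypd2 every LiTra point lies below every Co and Tra point, the Li points of Flg, Hrnr and Cdsn form a low and a high pair, and Tgm1 and Ivl overlap in all groups.

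The 10 genes differed most in the comparisons of combined treatment with control and with resin alone, which share the LiTra libraries. Of the 10 genes 7 fell in LiTra against Co, in a comparison in which 22.9% of all 20143 genes were called, 11.4% higher and 11.5% lower (edgeR, adjusted p under 0.05). Flg fell most, with a log2 difference of -2.96, and Zfp750 had the smallest adjusted p, 0.000556. The groups did not overlap for those 7 genes, as for 28.5% of all genes. The median log2 difference of the 10 genes was -1.58, beside -0.01 over all genes tested. With the ligature alone 1 of the 10, Lypd2, fell, where 7.49% of all genes were called, 5.19% higher and 2.3% lower. All 10 had a negative log2 difference there, with a median of -0.66 beside 0 over all genes tested. With the resin alone 0 of the 10 were called, as was 0% of all genes (0 of 20143 by edgeR, 1323 at an unadjusted p under 0.05, 88 by DESeq2 and 4 by limma-voom). Since the RNA comes from whole tissue, fewer cornifying cells and less RNA of these genes per cell cannot be told apart.

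Within the filaggrin family Flg and Hrnr fell and Flg2 was not called. Flg, whose product bundles keratin filaments and is then cut into moisture-binding amino acids, was at 277, 283, 336 and 437 CPM in Co. LiTra libraries had 28.8, 81.9, 43.7 and 17.0 CPM, all below the lowest control. Means were 333 ± 74.1 and 42.8 ± 28.2 CPM (SD, n = 4), a fit of 7.77-fold lower (log2 -2.96 ± 0.73 SE, adjusted p = 0.00977). Li libraries had 29.1, 30.2, 285 and 277 CPM, so the first pair lay with LiTra and the second pair with Co, and their difference from Co was not called (-1.10 ± 0.68, adjusted p = 0.357). Tra libraries had 111.5, 156, 346 and 312 CPM, the first pair below every control, and did not pass either (-0.53 ± 0.68, adjusted p = 0.967).

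Hrnr, a repeat-rich relative of filaggrin that is built into the envelope, was the most abundant of the 10 genes in CPM. It was at 3388, 1734, 3158 and 3414 CPM in Co and at 633, 1124, 840.4 and 326 CPM in LiTra. It fell 4.0-fold (log2 -2.0 ± 0.62, adjusted p = 0.0307), although Co 2 was low among the controls. That call is fragile. It was lost without Co 1, Co 3, Co 4, LiTra 1, LiTra 3 or LiTra 4 (adjusted p 0.0565 to 0.0871, log2 -2.07 to -1.76). Li libraries held 304, 189, 2139 and 1929 CPM, again a low and a high pair (-1.36 ± 0.61, adjusted p = 0.188), and Tra libraries 2659.7, 2329, 3884 and 2583 CPM (-0.03 ± 0.60, adjusted p = 0.999).

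Flg2, the close relative of Flg beside it on the chromosome, was measured on few counts, 57 to 400 per library. Its levels were 9.52, 6.71, 6.14 and 7.38 CPM in Co and 1.44, 3.08, 6.61 and 1.33 CPM in LiTra, where LiTra 3 lay among the controls. The difference of -1.25 ± 0.53 did not pass (adjusted p = 0.1, 95% interval -2.37 to -0.13). It was called without LiTra 3 (-1.93, adjusted p = 0.0181), by DESeq2 (adjusted p = 0.0482) and by limma-voom (adjusted p = 0.0156). In Li, Flg2 was at 2.0, 2.25, 9.76 and 6.93 CPM, with the first pair low once more. In Tra it was at 4.27 to 6.10 CPM, below every control, as groups did not overlap for 5.08% of all genes in that comparison, and its difference of -0.46 ± 0.52 was not called (adjusted p = 0.954). How reads from the internal repeats of Flg, Flg2 and Hrnr were assigned is not given in the sources used here, and values of these 3 genes are uncertain to that extent.

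The count ratio of Hrnr to Flg ranged over 6.14 to 12.2 (Co), 6.27 to 10.4 (Li), 8.29 to 23.9 (Tra) and 13.7 to 22.0 (LiTra). Every LiTra library thus held fewer Flg counts per Hrnr count than any Co or Li library. No test was made of this ratio.

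Ivl encodes involucrin, an early scaffold of the envelope. It was barely detected, with 24 to 120 counts per library, and did not follow the others. Co libraries had 1.72, 2.88, 1.39 and 0.767 CPM and LiTra libraries 2.13, 1.24, 1.40 and 1.99 CPM, fully interleaved. The log2 difference was 0.00 ± 0.45 (adjusted p = 0.999). Its 95% interval was -0.96 to 0.96, so a change within that interval is not excluded at this depth and spread. Means were 1.04 ± 0.448 CPM in Li and 1.56 ± 0.811 in Tra, and neither differed detectably from Co (adjusted p 0.389 and 0.997).

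The transglutaminases that cross-link the envelope parted ways. Tgm3, the cytosolic enzyme of late differentiation, was at 1542, 1096, 1415 and 1467 CPM in Co and at 513, 367, 389.5 and 391 CPM in LiTra. It fell 3.33-fold (log2 -1.73 ± 0.29, adjusted p = 0.00123), and the call held in every fit that left out 1 library (-1.84 to -1.67). Li libraries had 438, 611, 1362 and 1177 CPM (-0.62 ± 0.28, adjusted p = 0.191) and Tra libraries 1756, 1334, 1078 and 1263.5 CPM (-0.02 ± 0.28, adjusted p = 0.999). Tgm3 in Li thus showed the same low and high pairs, while the Tra libraries lay on both sides of the control range, Tra 1 above it and Tra 3 below it.

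Tgm1, the membrane-anchored enzyme whose loss causes lamellar ichthyosis in people, moved little. Co libraries had 214, 245, 299 and 344 CPM and LiTra libraries 248.5, 144, 229.9 and 212.5 CPM, so the groups overlapped. The difference of -0.40 ± 0.20 was not called (adjusted p = 0.174, 95% interval -0.83 to 0.03), and means were 255 ± 60.9 CPM in Li and 238 ± 35.5 in Tra against 275 ± 57.4 in Co. The count ratio of Tgm3 to Tgm1 was 4.27 to 7.20 in Co, 4.53 to 7.19 in Tra and 1.69 to 2.55 in LiTra. Li 1 and Li 2 had 2.39 and 2.02, near LiTra, and Li 3 and Li 4 had 6.06 and 3.82. The difference between the enzymes was not tested beyond these ratios.

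Cdsn encodes corneodesmosin, the glue of the corneodesmosome. It was at 424.5, 317, 504.5 and 587 CPM in Co and at 143, 139, 137 and 88.9 CPM in LiTra, 3.61-fold lower (log2 -1.85 ± 0.52, adjusted p = 0.0194). All LiTra libraries lay below all controls. LiTra 4 was apart from the other 3, and the call was lost without LiTra 4 (-1.72, adjusted p = 0.0611). Li had 86.1, 60.4, 488 and 399 CPM, a low and a high pair as for Flg and Hrnr, and was not called (-0.83 ± 0.51, adjusted p = 0.353). Tra had 343, 332, 645 and 558 CPM and lay around the controls (0.04 ± 0.50, adjusted p = 0.999).

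Both transcription factors fell. Zfp750, which acts below p63 to switch on terminal differentiation, was at 74.5, 69.2, 72.7 and 85.7 CPM in Co and 28.5, 30.2, 36.2 and 27.0 CPM in LiTra. That is 2.48-fold lower (log2 -1.31 ± 0.19, adjusted p = 0.000556), with the smallest spread among replicates of the 10 genes in Co. Li 1 had 41.5 CPM and the other Li libraries 68.0, 79.4 and 79.3 CPM, so 3 of 4 lay near the controls (-0.17 ± 0.19, adjusted p = 0.637). In Tra the levels were 55.3, 53.6, 70.1 and 84.0 CPM (-0.20 ± 0.19, adjusted p = 0.934). Of the 10 genes 4 overlap another in RefSeq's table: Zfp750 lies within the span of Tbcd, Flg overlaps the pseudogene Rplp0-ps1, Tgm3 overlaps Gm52561 and Mir6339, and Grhl3 overlaps Gm30888. Whether counting used strand is not given in the sources used here; reads of such pairs could be mixed.

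Grhl3, a Grainyhead factor needed for skin barrier formation, was at 77.7, 65.0, 78.0 and 93.1 CPM in Co and 33.7, 24.1, 33.8 and 25.2 CPM in LiTra. It fell 2.69-fold (log2 -1.43 ± 0.24, adjusted p = 0.00145). Li had 26.7, 52.0, 70.2 and 71.3 CPM (-0.51 ± 0.24, adjusted p = 0.208) and Tra 64.5, 63.1, 73.6 and 87.9 CPM (-0.12 ± 0.24, adjusted p = 0.989). The ligature libraries again ran from the LiTra range up to the control range. Zfp750 and Grhl3 kept their calls against Co in each of the 16 fits without 1 library, at -1.40 to -1.23 and -1.51 to -1.32.

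Lypd2, a small surface protein of the Ly6/uPAR family, was the exception in the ligature group. It rests on 6 to 191 counts per library. Co libraries had 2.67, 2.40, 4.48 and 5.05 CPM and Li libraries 0.150, 0.382, 1.2 and 1.18 CPM. All 4 Li libraries lay below all controls, as for 14.6% of all genes, and Lypd2 fell 5.01-fold (log2 -2.32 ± 0.55, adjusted p = 0.0214). The call was lost without Co 3, Co 4 or Li 2 (-2.21, -2.12 and -2.11, adjusted p 0.0577, 0.0593 and 0.0746), and in a fit of Co and Li alone (-2.34, adjusted p = 0.0793). LiTra libraries had 0.659, 0.736, 0.260 and 1.08 CPM, 5.32-fold below Co (log2 -2.41 ± 0.55, adjusted p = 0.00681), and Tra libraries 4.26, 2.50, 3.43 and 2.38 CPM (-0.22 ± 0.52, adjusted p = 0.990).

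**Figure D2:**
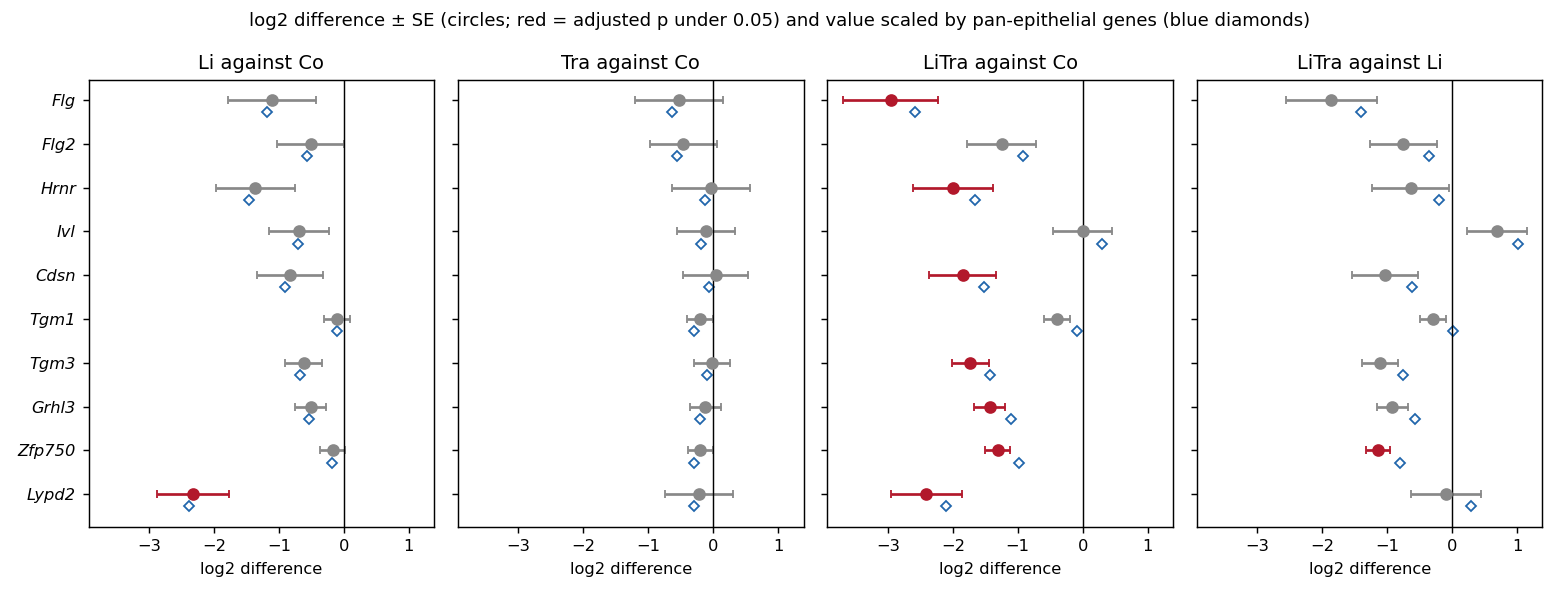
Log2 difference of the 10 genes in 4 comparisons (Li and Tra and LiTra against Co, LiTra against Li), 1 panel each. Circles give the fit with TMM scaling with SE bars, red where adjusted p was under 0.05, and blue diamonds the fit scaled by 12 epithelial genes. Red circles fill the panel of LiTra against Co for 7 genes, from -2.96 for Flg to -1.31 for Zfp750, and each of the 2 comparisons with Li holds 1, Lypd2 against Co and Zfp750 in LiTra against Li.

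Adding the resin to the ligature was asked of LiTra against Li. Zfp750 fell 2.2-fold (log2 -1.14 ± 0.19, adjusted p = 0.0452) and was the 1 gene of 10 called, in a comparison where 0.0844% of all genes were called, 0.0248% higher and 0.0596% lower. Its LiTra libraries, at most 36.2 CPM, lay below all Li libraries, the lowest of which had 41.5 CPM, as groups did not overlap for 10.5% of all genes. The call was lost in 13 of the 16 fits without 1 library, those without any Co, any LiTra, Li 2, Li 3, Li 4, Tra 1 or Tra 3, at log2 -1.23 to -1.05 with adjusted p 0.0596 to 0.195. Tgm3 (-1.11 ± 0.28, adjusted p = 0.0782) and Grhl3 (-0.92 ± 0.24, adjusted p = 0.0814) missed the threshold. Both were called without Li 1 (-1.33 and -1.14, adjusted p 0.0140 and 0.00914), by DESeq2 (adjusted p 0.00398 and 0.00791) and by limma-voom (0.0382 and 0.0457). Those fits also called more of all genes, 893, 1430 and 435, against 17 in the main fit. For Flg the difference was -1.86 ± 0.70 (adjusted p = 0.17), for Cdsn -1.03 ± 0.51 (adjusted p = 0.300) and for Hrnr -0.64 ± 0.60 (adjusted p = 0.634), and for each of them Li held a low and a high pair. Lypd2 was at nearly the same level in both groups (-0.09 ± 0.54, adjusted p = 0.959, 95% interval -1.24 to 1.07).

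Adding the ligature to the resin was asked of LiTra against Tra, which uses the same LiTra libraries as the comparison with Co and is not independent of it. Again 7 of the 10 fell, where 18.8% of all genes were called, 9.36% higher and 9.44% lower. They were Flg (-2.43 ± 0.71, adjusted p = 0.0277), Lypd2 (-2.2 ± 0.55, 0.0132), Hrnr (-1.97 ± 0.62, 0.0383), Cdsn (-1.89 ± 0.52, 0.0216), Tgm3 (-1.71 ± 0.29, 0.00193), Grhl3 (-1.31 ± 0.24, 0.00316) and Zfp750 (-1.11 ± 0.19, 0.00209). Groups did not overlap for those 7, as for 23.5% of all genes. Flg lost its call without Tra 3, Tra 4, LiTra 1, LiTra 3 or LiTra 4 (adjusted p 0.0598 to 0.0807, log2 -2.44 to -2.17) and Cdsn without Tra 3 or LiTra 4 (0.0561 and 0.0678, log2 -1.70 and -1.75). Hrnr lost it without Co 3, Tra 1, Tra 3, Tra 4, LiTra 1, LiTra 3 or LiTra 4 (adjusted p 0.0502 to 0.106, log2 -2.04 to -1.73). Without Tra 3, as without LiTra 4, 4 of the 10 were called.

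Whether the ligature acted differently with the resin than without it was tested as an interaction, the difference LiTra minus Tra less the difference Li minus Co. By edgeR 0 of the 10 genes were called, as was 0% of all genes (2289 at an unadjusted p under 0.05, lowest adjusted p 0.25). The values were -0.94 ± 0.26 for Zfp750 (adjusted p = 0.264), -1.09 ± 0.40 for Tgm3 (0.336), -0.80 ± 0.34 for Grhl3 (0.398) and -1.33 ± 0.96 for Flg (0.625). Those of Zfp750, Tgm3 and Grhl3 had an unadjusted p under 0.05, at 0.0029, 0.015 and 0.032. DESeq2 called 183 genes of all and 1 of the 10, Zfp750 (-0.93, adjusted p = 0.0493). Lypd2 was at 0.13 ± 0.75 (0.968).

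The 10 genes did not all vary together from library to library. Among the 8 other than Ivl and Tgm1, the Pearson r of log2 CPM over the 16 libraries was 0.55 to 0.96 in 28 pairs, with a median of 0.83. Pairs with Tgm1 had r of -0.15 to 0.65 and pairs with Ivl -0.19 to 0.11, and Ivl also has the counting noise of a low gene. These values include the group differences and describe the libraries only. The mean centred log2 CPM of the 10 genes was 0.51 to 0.87 in Co and 0.32 to 0.79 in Tra, against -1.15 to -0.73 in LiTra. The Li libraries had -1.33, -1.04, 0.43 and 0.47, so the lowest library of all was a Li library.

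Over the 16 libraries the genes whose log2 CPM followed that mean most closely were Padi1 (r = 0.986), a peptidylarginine deiminase that modifies filaggrin, Stx19 (0.983), Cgn (0.982), which encodes the tight junction protein cingulin, Tob1 (0.981), Ctnnbip1 (0.980) and Krt80 (0.979), a keratin of differentiating layers. Their differences in LiTra against Co were -1.15 (Tob1) to -2.19 (Krt80) on the log2 scale. A fall follows from how the 6 were chosen, since the mean was itself lower in those LiTra libraries, and is no separate result. The nearest gene to each was Rec8 for Flg (0.970), Cryba2 for Flg2 (0.914), Pof1b for Hrnr (0.991), Pdlim2 for Tgm3 (0.975), Fetub for Cdsn (0.991), Erbb2 for Zfp750 (0.966), Evpl for Grhl3 (0.978) and Slurp2 for Lypd2 (0.949). For Tgm1 it was Pla2g4e (0.908) and for Ivl Cnpy4 (0.823). Of these 10 nearest genes Cryba2 (-1.02 ± 0.50), Pla2g4e (-0.30 ± 0.25) and Cnpy4 (0.07 ± 0.10) were not called in LiTra against Co, and the other 7 fell. These too were picked for their likeness over the same libraries, so their calls largely repeat those of the 10 genes.

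**Figure D3:**
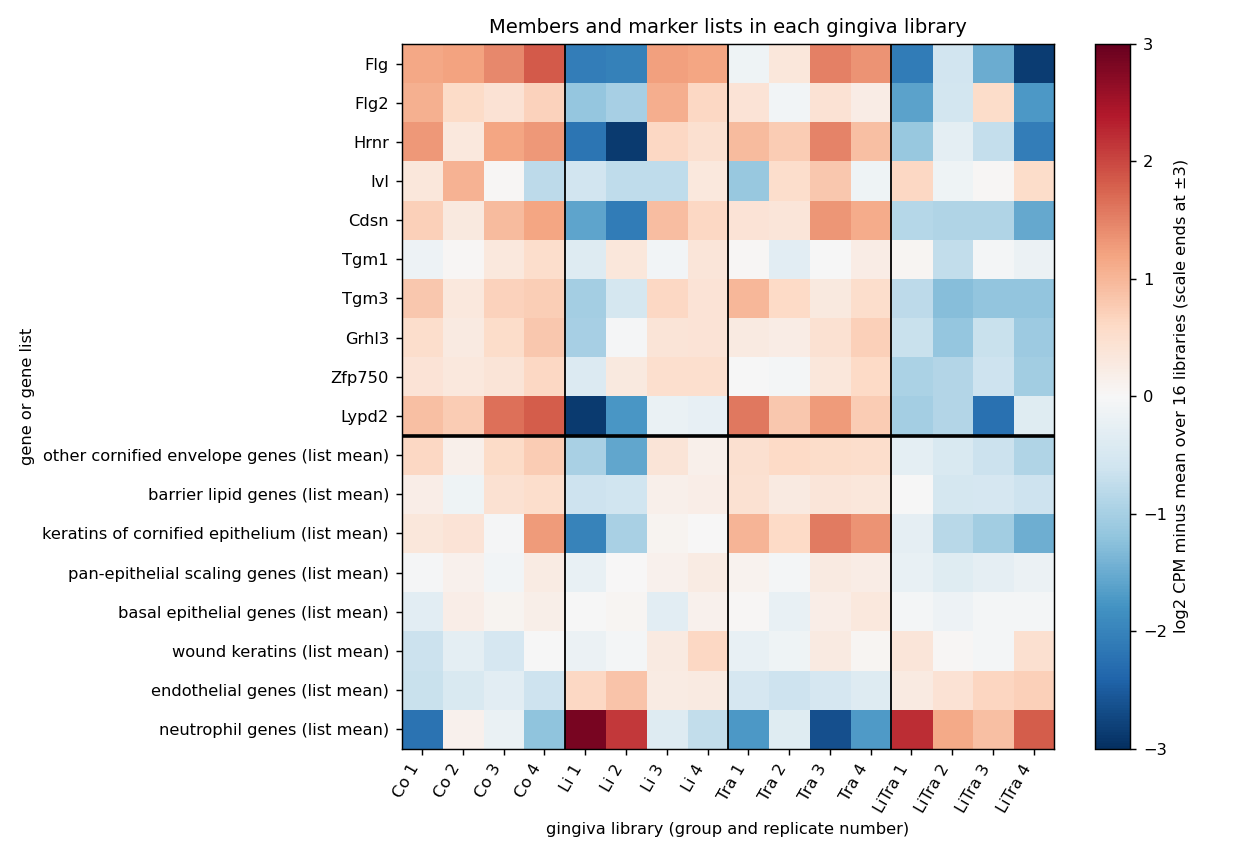
Centred log2 CPM of the 10 genes (upper rows) and the means of 8 gene lists (lower rows) in the 16 gingiva libraries, grouped by treatment, on a colour scale from -3 to 3. The LiTra columns and the first pair of Li columns are blue for most of the 10 genes and red for the neutrophil list, whereas Tgm1 and Ivl show no such pattern.

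Other parts of the cornification programme were lower in LiTra as well. Of 34 tested genes for other envelope proteins 20 fell in LiTra against Co and 0 rose, with a median of -1.12. That list leaves out the Sprr2 family of envelope precursors, in which 6 of 10 genes rose and 0 fell. Lor, which encodes loricrin, the main protein of the envelope, fell by 2.36 ± 0.43 on the log2 scale (adjusted p = 0.00192), and Evpl (-1.48 ± 0.24) and Ppl (-1.33 ± 0.27), for the plaque proteins envoplakin and periplakin, fell too. The count of 20 envelope genes that fell was 13 without Co 1 or LiTra 3, 9 without Co 4 and 7 without LiTra 4. Of 16 genes listed under corneodesmosomes and proteases 5 fell. Among them were Casp14 (-1.31 ± 0.30), the protease that breaks filaggrin down, and Dsg1a (-1.18 ± 0.31), a desmosomal cadherin. Padi1 (-1.94 ± 0.35) was another of the 5. It is the deiminase named above for its likeness to the mean of the 10 genes, and is neither a corneodesmosome protein nor a protease. The count of 5 was 3 without Co 4, 8 without Li 1 and 10 without Li 2. Of 19 genes for barrier lipids 11 fell, including Alox12b (-1.62 ± 0.42), the lipoxygenase of the lipid envelope, Pnpla1 (-1.39 ± 0.33), Cyp4f39 (-1.35 ± 0.27) and the fatty acid transporter Slc27a4 (-0.65 ± 0.13). Without Co 3 or LiTra 3 it was 7, and without Co 4 or LiTra 4 it was 6.

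Among 26 regulators of keratinocyte differentiation other than Zfp750 and Grhl3, 14 fell and 3 rose. Dlx3 (-2.22 ± 0.44), Klf4 (-1.61 ± 0.28) and Grhl1 (-0.78 ± 0.15) are transcription factors that fell, and the Notch ligand gene Jag1 rose (0.68 ± 0.12, adjusted p = 0.00198). In the Ly6/uPAR family of Lypd2 5 of 9 fell, with Slurp1, mutated in a skin disease of palms and soles, the lowest (-3.07 ± 0.62, adjusted p = 0.00338), then Slurp2 (-1.91 ± 0.43), Lypd5 (-1.54 ± 0.40) and Lynx1 (-1.07 ± 0.28). Of 8 keratins of cornified epithelium 5 fell, among them Krt1 (-3.32 ± 0.44, adjusted p = 0.000324), Krt10 (-2.40 ± 0.50) and Krt80 (-2.19 ± 0.39), and the count was 3 without LiTra 1 or LiTra 4. Krt13 and Krt4, keratins of the non-cornified lining, fell by 1.25 ± 0.35 and 1.30 ± 0.39. Krt13 lost its call without LiTra 4 (adjusted p = 0.0584), and Krt4 without Co 1, Co 3, Co 4, LiTra 2, LiTra 3 or LiTra 4 (0.0575 to 0.0820). Of the 4 wound keratins Krt6b (0.74 ± 0.20) and Krt17 (0.89 ± 0.25) rose, Krt17 not without Co 1, LiTra 1 or LiTra 4 (adjusted p 0.0566 to 0.0796).

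With the ligature alone fewer genes of these lists were called against Co, as of all genes (7.49% against 22.9%). Of other envelope genes 3 fell, of barrier lipid genes 1, of cornified keratins 1 and of corneodesmosome and protease genes 0. At an unadjusted p under 0.05 they numbered 22 of 34, 7 of 19, 2 of 8 and 4 of 16, beside 4808 of all 20143 genes. Their median log2 differences were -0.84, -0.39, -0.92 and -0.62, and every gene tested in these 4 lists was lower in Li except 3 barrier lipid genes. The other lists were mixed. Of the 26 regulators 3 rose and 1 fell, with 11 higher, 15 lower and a median of -0.09. All 4 wound keratins were higher, with 0 called, and 5 of the 10 Sprr2 genes rose. Of the 9 other Ly6/uPAR genes 8 were lower, and so were Krt4 and Krt13, with 0 of them called. The envelope count was 0 without Co 1, Co 3, Co 4 or Li 1, 1 without Li 2, and 16 without Li 3, so it rests on which Li and Co libraries are kept.

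Along the epidermal differentiation complex the changes ran in both directions. In LiTra against Co 21 of its 46 tested genes fell, 6 rose and 19 were not called, and all 6 that rose belonged to the Sprr2 family, small proline-rich envelope precursors. Those values ranged from 0.54 to 7.26 over the 10 Sprr2 genes. The Lce1 family, late envelope proteins, fell in 13 of 14 genes (-1.86 to -0.65), the Lce3 family in 0 of 6 (-0.87 to -0.31). Flg and Hrnr fell at the far end of the complex, with Flg2 next to Flg uncalled, and Ivl, uncalled at 0.00, lies between the Sprr and the Lce1 genes. Sprr2 and Lce1 hold near-identical copies, and reads may have been divided among them, which leaves the value of each copy uncertain. The families were singled out after their values were seen. The count that fell was 13 without Co 1, 10 without Co 4 and 8 without LiTra 4. With the ligature alone 3 genes of the complex fell (18 without Li 3, and 0 without Co 1, Co 3, Co 4 or Li 1) and 5 rose, all 5 of them Sprr2.

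**Figure D4:**
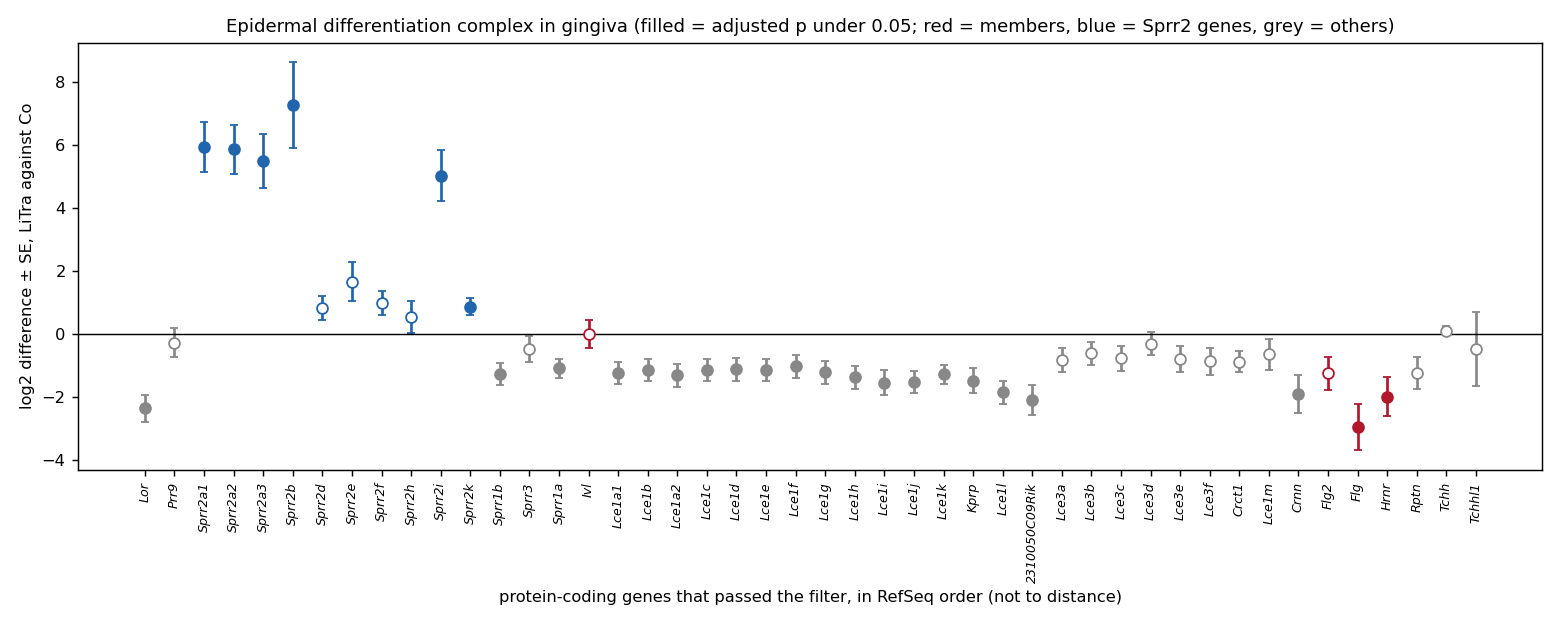
Log2 difference of LiTra against Co (± SE) for the tested genes of the epidermal differentiation complex, placed in their chromosome order from Lor to Tchhl1; filled points had adjusted p under 0.05, Flg, Flg2, Hrnr and Ivl are red and Sprr2 genes blue. The blue points reach 7.26 and none is below 0, while most other filled points lie between -3 and -1.

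Marker genes of some other cell types also differed between the groups. The 5 endothelial genes, none of them at 0, summed to 118 to 147 CPM in Co and 249.5 to 335 in LiTra, and 5 of 5 rose. They rose 5 of 5 in Li against Co as well, at 308.5, 381, 225.5 and 232.8 CPM. Li 1 and Li 2 were again the pair further from Co. Li 3 and Li 4 were also above every control here, whereas for Flg, Hrnr and Cdsn they lay within the control range. The 8 neutrophil genes summed to 165 to 899 CPM in Co and 144 to 597 in Tra, beside 1007 to 7209 in Li and 2279 to 9076 in LiTra, and 4 of 8 rose in LiTra against Co. Of the 6 fibroblast genes 2 rose, at sums of 3538 to 7523 CPM in Co and 5385 to 9166 in LiTra. Gland genes, 9 of 10 of them in the table and 1 of these at 0 in all libraries, summed to 25.1 to 5029.8 CPM in Co and 2.32 to 219.8 in LiTra, with 2 of 7 tested falling (1 without Co 1, LiTra 1, LiTra 3 or LiTra 4, and 0 by limma-voom). Skeletal muscle genes summed to 109 to 2521 and 78.7 to 349.8 CPM, with 2 of 6 falling (0 without Co 1, Co 3, Co 4, LiTra 2, LiTra 3 or LiTra 4, and 4 without Co 2 or Tra 3). Hair follicle genes, 9 of 10 in the table and 1 of these at 0, summed to 33.0 to 41.8 and 20.6 to 29.9 CPM, and 3 of 5 tested fell (1 with the stricter filter), Msx2 (-1.91 ± 0.33), Krt31 (-3.01 ± 0.77) and Krt35 (-4.52 ± 1.48). Krt35 lost its call without Co 1, Co 3, Tra 2, LiTra 1, LiTra 3 or LiTra 4 (adjusted p 0.0523 to 0.103). The junctional epithelium genes Odam and Amtn summed to 281.5 to 612 CPM in Co and 159 to 293 in LiTra, and Odam fell (-1.19 ± 0.27, adjusted p = 0.00644). Erythroid genes summed to 308 to 848 and 268 to 473 CPM, with 0 of 5 at an unadjusted p under 0.05. The part of these cells in the decrease of the 10 genes was not tested.

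As an alternative, each library was scaled to 12 epithelial genes, such as Cdh1, Trp63 and Krt5, in place of all genes. Krt5 and Krt14 among them are also basal layer genes, so the scaling mixes layers and does not measure the amount of epithelium as such. Those genes summed to 22897 to 30052 CPM in Co and 29576 to 33066 in LiTra, although 8 of the 12 fell and 2 rose, so they are not a neutral standard. Krt14 weighs heavily in that sum, at 8935 to 12687 CPM in Co and 16923 to 20361 in LiTra. The scaling used the geometric mean instead, which went the other way. Its factors were 0.946 to 1.131 in Co and 0.843 to 0.935 in LiTra, and the median log2 difference of the 12 genes was -0.40. The same 7 genes were called in LiTra against Co, with Flg at -2.59, Lypd2 at -2.10, Hrnr at -1.66, Cdsn at -1.52, Tgm3 at -1.42, Grhl3 at -1.10 and Zfp750 at -0.98 (adjusted p 0.00055 to 0.0392). This scaling put the median of all genes at 0.31 in that comparison and turned the split of all called genes from 2293 higher and 2315 lower to 4962 and 1020 (2898 and 1754 with library totals as the scaling). Tgm1 came to -0.08 and Ivl to 0.30, both uncalled (adjusted p 0.759 and 0.644). Under it Krt4, St14, Lynx1, Dst, Col17a1 and Esrp2 lost their calls (adjusted p 0.0583 to 0.174), and 6 of the 26 regulators fell and 5 rose. Among 10 basal layer genes 1 rose, Krt14 (0.78 ± 0.14, adjusted p = 0.00162), and 3 fell, Krt15 (-2.16 ± 0.44), Dst (-0.69 ± 0.15) and Col17a1 (-0.64 ± 0.16). With the epithelial scaling that split was 4 against 1.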

How the data were processed

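Poly(A)-enriched RNA of gingiva and bone was sequenced, 16 libraries per tissue and 4 per group. The authors deposited estimated counts, rounded to whole numbers, for each gene. The submitters' processing notes list the GRCm39 build along with HISAT2 2.2.1, DESeq2 1.32.0, StringTie 2.1.7, Trimmomatic 0.39 and FastQC 0.11.9, with no order or settings. CR in a column name was read as composite resin. Of 55359 identifiers 52083 had a symbol in GENCODE M21, and the rest held at most 0.409% of the counts of a gingiva library. No libraries were identical.

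Counts of the 16 gingiva libraries entered 1 quasi-likelihood fit in edgeR 4.0.16 (R 4.3.3), filtered by filterByExpr (minimum count 10, minimum total 15) and scaled by TMM. P-values were two-sided and adjusted by Benjamini-Hochberg over 20143 genes in each of 6 comparisons, with calls under 0.05. The fit was tested on simulated counts. Levels in bone are given without a test. The 10 genes, the gene lists and the rules were chosen with earlier results of these data known. Genes outside the 10 were named by a rule: up to 4 called genes of each list with the smallest p in LiTra against Co, the 6 genes most correlated with the mean of the 10, and the nearest gene to each, with a mean log2 CPM of at least 1. Alternatives were other scalings (DESeq2's size factors, library totals, 12 epithelial genes), no filter or CPM over 1 in 4 libraries, DESeq2 1.42.0, limma-voom (limma 3.58.1), the replicate number as a block, the compared groups alone, an adjusted p under 0.01, a fold change of at least 2, and each library left out.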

Additional observations from a re-analysis of the deposited data

Results flagged for a closer look

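In 4 of the 40 sets of 4 libraries (10 genes in 4 groups), 1 library lay far from the other 3, with a gap above Dixon's 95% critical value for the share of the range; chance flags about 1 in 20. Hrnr was at 1733.6 CPM in Co 2, against 3158 to 3414 in the other controls. Ivl was at 1.71 CPM in Li 4, against 0.781 to 0.899. Tgm3 was at 513 CPM in LiTra 1, against 367 to 391. Cdsn was at 88.9 CPM in LiTra 4, against 137 to 143.

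In bone, which the comparisons do not use, 4 genes exceeded the highest control library in a treated library. Treated libraries outnumber the controls, so many genes would meet this rule with no effect of treatment. Flg2 was at 0.247 CPM in LiTra 4, with 0.124 as the highest control. Tgm1 was at 60.4 CPM in Li 3, against 46.5. Zfp750 was at 18.5 CPM in Tra 3, against 11.7, and Lypd2 at 14.5 CPM in the same library, against 5.33. Each is a single library, and no test was made. The flag of Zfp750 depends on the scaling of library sizes, since by library totals Co 1 and Co 3 lay above Tra 3.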

How the results depend on the processing

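Of 1490 alternative values for single genes among the 10, 1395 kept their direction and their side of the threshold, 44 lost a call, 10 gained one and 41 changed sign, all of the last without a call. With Li against Co, 0 of the 10 were called in a fit of those groups alone or at an adjusted p under 0.01, and 0 to 1 without 1 library. For LiTra against Co 5 to 7 were called without 1 library, and 5 to 8 under the other settings. LiTra against Li gave 0 with library totals, with no filter, with those groups alone and at an adjusted p under 0.01. It gave 3 by DESeq2 and by limma-voom, and 0 to 3 without 1 library. Calls over all genes moved as well, from 17 in the main fit to 0 or 1 in the settings first named. They were 1430 by DESeq2, 435 by limma-voom and 893 without Li 1, where 3 of the 10 were called. LiTra against Tra gave 3 at an adjusted p under 0.01 and 4 to 7 without 1 library, and the interaction 1 by DESeq2. Of all genes 1485 were called in LiTra against Tra at an adjusted p under 0.01 and 183 in the interaction by DESeq2. For Li against Co 407 of all genes were called with those groups alone and 337 at an adjusted p under 0.01. For these counts the cause was not tested.

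Uncalled values changed sign as follows. With epithelial scaling Cdsn came to -0.07 in Tra against Co, Tgm1 to 0.02 and Lypd2 to 0.29 in LiTra against Li, Tgm1 to 0.21 in LiTra against Tra, and Flg2 to 0.20 and Tgm1 to 0.31 in the interaction, where Tgm1 was 0.02 with library totals. Without 1 library the ranges were -0.21 to 0.02 for Tgm1 in Li against Co. In Tra against Co they were -0.21 to 0.06 for Hrnr, -0.41 to 0.27 for Ivl, -0.17 to 0.07 for Tgm3 and -0.16 to 0.18 for Cdsn. They were -0.41 to 0.26 for Lypd2 in LiTra against Li and -0.15 to 0.41 for Ivl in LiTra against Tra. In the interaction they were -0.96 to 0.19 for Flg2, -0.20 to 0.07 for Tgm1 and -0.20 to 0.47 for Lypd2.

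Libraries shared only a replicate number: 24 same-numbered pairs had correlations of -0.48 to 0.26, 6 of them over 0.1, and 3 of 16 libraries correlated best with their own number. With the replicate number as a block 6 of the 10 were called in LiTra against Co and 6 in LiTra against Tra, Hrnr not (-1.90 and -1.86, adjusted p 0.0510 and 0.0611), and Cdsn was -0.01 in Tra against Co and Lypd2 0.06 in LiTra against Li. Depth limits Ivl, Lypd2 and Flg2, which had at most 120, 191 and 400 counts in a library.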

Other observations

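Bone of the same groups carried little RNA of these genes. For 9 of the 10, 0 of the 16 bone libraries reached the lowest gingiva library. Flg2 was at 0 in 14 bone libraries, Ivl in 13 and Flg in 8. Tgm1 was above 0 in all 16 and had the highest median of the 10, 6.77 CPM (2.68 to 60.4), beside a median of 240.2 CPM in gingiva. Co 1 was the highest bone library for Flg (6.55 CPM), Hrnr (59.0), Tgm3 (30.7), Cdsn (17.8) and Grhl3 (9.41), so a control held the most. In that library the 8 keratins of cornified epithelium summed to 409 CPM, against 10.1 to 22.9 in the other bone controls.

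Lypd2 was the exception in bone. All 16 bone libraries lay above the lowest gingiva library (0.150 CPM), at 0.174 to 14.5 CPM, and the highest bone value was above the highest of gingiva (5.05 CPM). Gland genes varied widely among the same bone libraries, up to 859717 CPM in LiTra 1. They reached 388481 CPM in Tra 3, where the CPM of Lypd2 and Zfp750 were highest. The part of gland genes in these levels was not tested. That rank depends on the scaling of library sizes. Tra 3 had 316 counts of Lypd2 in a total of 58767902, and Tra 1 had 271 in 38163979, a larger share. For Zfp750 Co 1 had the larger share, with 349 counts in 46047069 against 403 in Tra 3.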
